A study of Mus musculus with 24 samples.

Results

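The genes described here each spanned more than 500 kilobases (kb) of one mouse autosome. The span of a gene was taken as the distance between the smallest and the largest coordinate of all its exons, introns and splice sites in the splicing table, on the mm9 assembly. Of 18268 genes with such events, 17555 lay on a single autosome and 173 of these spanned over 500 kb. A gene was kept where the expression table held its symbol and at least 3 samples reached 1 CPM (counts scaled to library size), which left 157, and 23 genes of gene families of ion channels, neurexins, protocadherins, RNA-binding proteins and related groups were set aside. The remaining 134 genes, of 16627 genes tested in all, had a median span of 681 kb, 29 of them spanned over 1 megabase, and they were spread over all 19 autosomes. The rule used no expression difference, but a gene could pass the 1 CPM filter through the samples of a single stage.

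Poly(A)+ RNA had been sequenced from E14 mouse embryonic stem cells (ESCs) and from cells differentiated from them into neural cells. WT cells (wt/wt) were compared with slow/slow cells, which are homozygous for Polr2a R749H, an arginine-to-histidine substitution in the catalytic subunit of RNA polymerase II. Each genotype was sampled in ESCs kept in 2i medium with LIF, in neural progenitors (NPCs) after differentiation to day 7 in N2B27 medium, in PSA-NCAM+ cells purified with beads at day 10, and in mature neurons, which were replated at day 7 and cultured for 14 days more. Each of the 8 groups had 3 replicates by its labels, 24 samples in all, and the study's methods described the runs as independent differentiation experiments. The slow/slow cells came from ESCs that went through repeated gene targeting and Flp recombination, so genotype cannot be told apart from clone, and slow/slow cells had been plated more densely than WT cells.

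Very long genes are mostly intron: their exons make up a small part of the transcribed sequence, and the polymerase needs hours to cross some of them. Many code for cell adhesion molecules, receptors and scaffolds that neurons use to find partners and build synapses, and several lie at common fragile sites, where chromosomes break under replication stress. In these 134 genes the exons of the annotation (GENCODE vM21, GRCm38 assembly) covered a median of 1.26% of the gene. The median exonic length was 10308 bases, against 4521 over the expressed genes with a span.

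Library totals ranged from 32974432 to 104466886 counts. Polr2a itself was at 158.5 to 175.6 CPM in slow/slow neurons and at 307 to 332 CPM in WT neurons, and since the allele differs by a point mutation the counts did not check the genotype. Chromosome 8 carried a general rise in the mutant at every stage, with all-gene medians of 0.42 to 0.48 on the log2 scale, and chromosome 15 a fall at the ESC, NPC and PSA-NCAM+ stages, with medians of -0.61 to -0.56. The set held 9 genes on chromosome 8 and 5 on chromosome 15. Of the 134 genes, 129 were also annotated as longer than 500 kb. The span was uncertain for 6: Arfip1, Arhgap26, Dnahc7c and Rasgrf2 were annotated at 86.5 to 383 kb, Syne1 had no matching identifier in the annotation, and the annotated Fgfr2 model, of 2961 kb, ran across 30 other coding genes. Of the 134 genes, 19 overlapped another coding gene, and whether counting used strand was not stated.

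The long genes came on with neuronal differentiation. In WT cells 117 of 134 were higher in mature neurons than in ESCs and 11 were lower (43.4% and 39.4% of all genes tested), with a median fold of 29.8. In slow/slow cells 119 were higher and 7 lower (44% and 38.4% of all genes tested), with a median fold of 25.4. The steps between were smaller: 69 were higher in WT NPCs and 93 in WT PSA-NCAM+ cells than in WT ESCs (34% and 37.6% of all genes tested), with median folds of 1.54 and 2.83. These comparisons share the ESC samples. Some of the long genes, Cntn4, Dlg2, Grm5, Lsamp and Opcml among them, reached 1 CPM in neurons alone and entered the set through that stage. For such genes a rise from ESCs to neurons, and a mean under 1 CPM in ESCs, was largely set by the filter and supports nothing. In WT ESCs 81 of the 134 genes averaged under 1 CPM, against 6 in WT neurons, so much of what follows on ESCs, NPCs and PSA-NCAM+ cells concerns low counts.

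Levels per length, in CPM per kb of exon, showed which of the long genes were most abundant. In WT neurons the highest was Ctnna2, which codes for an alpha-catenin of neurons, at 37.5 ± 1.37 (SD, n = 3). Next came Syt1, the calcium sensor of synaptic vesicle release, at 20.7 ± 0.8999, and Exoc4, a subunit of the exocyst, at 18.4 ± 0.344. Camta1, a calmodulin-binding transcription activator, stood at 17.6 ± 1.22 and Atrnl1, an attractin-like membrane protein, at 14.5 ± 0.136. The intervals of Ctnna2 and Syt1 did not overlap, and those of Syt1 and Exoc4 did not. In WT ESCs Exoc4 led at 12.9 ± 0.421, followed by Dock1, an activator of Rac, at 10.02 ± 0.848 and Etl4 at 8.42 ± 0.588. Smyd3, a lysine methyltransferase, was at 5.62 ± 0.439 and the receptor tyrosine phosphatase Ptprk at 5.21 ± 0.324.

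The genotype effect on the long genes was mostly a loss in mature neurons. There 73 of 134 were lower and 18 higher in slow/slow cells, by edgeR's quasi-likelihood test at an adjusted p under 0.05 (28.4% and 23.4% of all genes tested), and their median log2 change was -0.85 against -0.06 over all genes tested. Their summed level was 6082, 5865 and 5833 CPM in the WT samples and 3658, 3674 and 3519 CPM in the slow/slow samples. Every slow/slow sample lay below every WT sample. Upper-quartile scaling in place of TMM shifted the median of all genes in neurons by 0.14, to 0.08, and that of the long genes to -0.71, with 67 lower and 22 higher, so the gap between the medians was -0.79 against -0.80 with TMM. Samples of the 2 genotypes did not overlap, lower in 92 and higher in 24 of the long genes (42.0% and 33.5% of all genes tested). In bulk RNA, fewer neurons in the culture and less RNA per neuron cannot be told apart.

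Markers of other cell types and of neurons differed between the same cultures. Of 15 tested markers of neurons with short spans, 10 were lower and 1, Nefm, was higher in slow/slow neurons, and 4 did not pass. Their median log2 change was -1.03, and their summed level went from 8231 to 8979 CPM in WT to 5423 to 5811 CPM in slow/slow samples. All of the 4 neural progenitor markers were higher in slow/slow neurons, with a summed level of 659 to 762 CPM against 361 to 438 CPM in WT, and the 7 mesenchymal markers summed to 601 to 638 CPM against 357 to 478 CPM, with 4 of the 7 higher and 2 lower. Astrocyte markers were lower in 4 of 5 tested, from 227 to 283 CPM in WT to 122 to 135 CPM. Among the 3 microglial markers, 3 averaged under 1 CPM in WT neurons and 2 in slow/slow neurons. The 1 that was tested, Csf1r, was higher in slow/slow neurons, at a mean of 5.003 CPM against 0.741 CPM (log2 change 2.74, adjusted p = 0.0346). Endothelial markers were higher in 3 of 3, at 95.5 to 119 CPM against 9.81 to 12.8 CPM in WT neurons. Of 7 markers each, 6 endodermal ones were higher and 1 lower, 4 of the oligodendrocyte lineage higher and 2 lower, and 5 pluripotency markers higher and 1 lower, with summed levels of 48.9 to 64.8, 55.3 to 80.5 and 89.5 to 93.3 CPM against 49.1 to 56.9, 74.0 to 95.5 and 104 to 138 CPM in WT. The part of culture composition in the fall of the long genes was not tested.

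**Figure D1:**
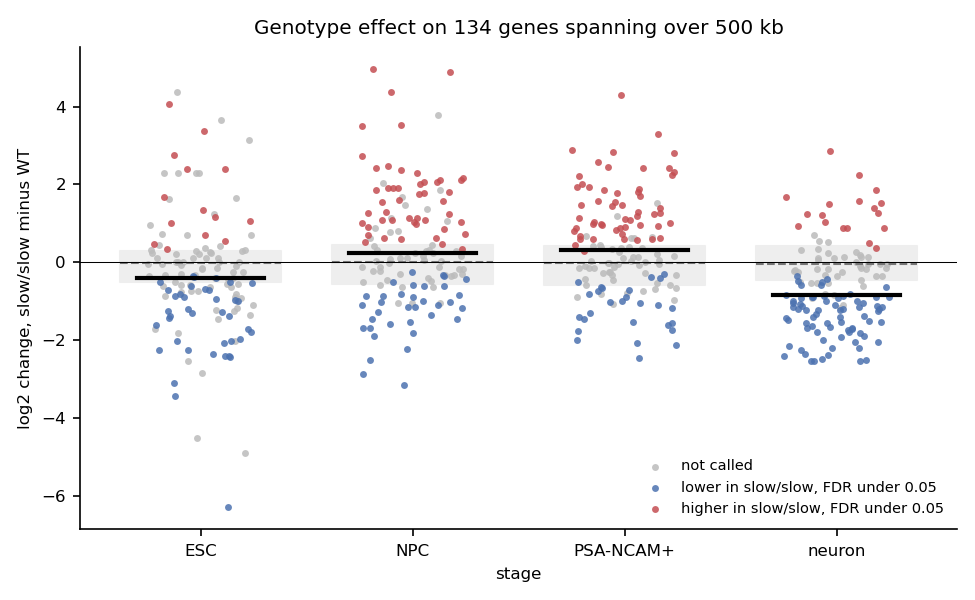
Log2 change between genotypes (y axis, slow/slow minus WT) of the 134 long genes at each stage (x axis), 1 point per gene, coloured by its call; the black bar is their median, the grey band and dashed line the interquartile range and the median of all genes tested. The black bar starts at -0.42 (ESC), passes 0.24 (NPC) and 0.32 (PSA-NCAM+) and ends at -0.85 (neuron).

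At the earlier stages the balance differed. In ESCs 39 were lower and 14 higher (21.9% and 18.5% of all genes tested), with a median log2 change of -0.42. In NPCs 35 were lower and 48 higher (27.4% and 29.3%), with a median of 0.24, and in PSA-NCAM+ cells 27 were lower and 55 higher (28.1% and 28.6%), with a median of 0.32. The medians over all genes tested were -0.02, 0.01 and -0.01. Genotypes did not overlap, lower and higher, for 55 and 21 long genes in ESCs (31.9% and 27.9% of all genes tested), 44 and 53 in NPCs (37.0% and 37.8%) and 23 and 43 in PSA-NCAM+ cells (22.0% and 21.1%). Genes with a group at 0 counts numbered 15 in ESCs, 3 in NPCs and 1 in PSA-NCAM+ cells, and with these at the bound that 3 counts over the group allow, or left out where the other group was under it, the medians were -0.52, 0.23 and 0.33.

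The early values were less firm than those of neurons. Fitted on their own stage's samples alone, the PSA-NCAM+ cells gave 9 lower and 23 higher of 122 genes, and the ESCs 41 lower and 16 higher of 80. Among genes averaging at least 1 CPM at the stage, the medians were -0.33 over 53 genes in ESCs and 0.03 over 67 in NPCs. The PSA-NCAM+ median ranged from 0.19 without WT replicate 1 to 0.44 without WT replicate 2, and the NPC median was 0.13 without slow/slow replicate 3. In the PSA-NCAM+ samples short neuronal markers summed to 228 to 270 CPM in WT and 448 to 996 CPM in slow/slow cells, with 13 of 15 higher, and pluripotency markers to 1554 to 2109 and 808 to 848 CPM, with 5 of 7 lower. In NPCs 10 of the 15 neuronal markers were higher and 0 lower, and in slow/slow samples they summed to 548 to 606 CPM against 242 to 250.5 CPM in WT. The part of these shifts in the long genes' values was not tested.

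Some calls turned around along the pathway. Of the 134 genes, 38 were higher in slow/slow NPCs or PSA-NCAM+ cells and lower in slow/slow neurons (11.2% of all genes tested), and 21 of these were higher at both of the earlier stages (5.85% of all genes tested). These 21 include Dscam, Robo2, Lsamp, Nbea, Syt1, Odz2, Odz4 and Lphn3. A group of 8 genes were lower at all 4 stages (Cadm2, Cdh18, Exoc4, Rora, Ryr2, Sdk1, Smyd3 and Vps13b), 3 were higher at all 4 (Dcc, Pard3 and Spag16), and 9 were called at no stage. Over all genes tested the shares were 3.38%, 3.49% and 11.6% in the same order. Spag16 reached 1 CPM in slow/slow NPCs and PSA-NCAM+ cells alone, so its calls there support nothing.

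**Figure D2:**
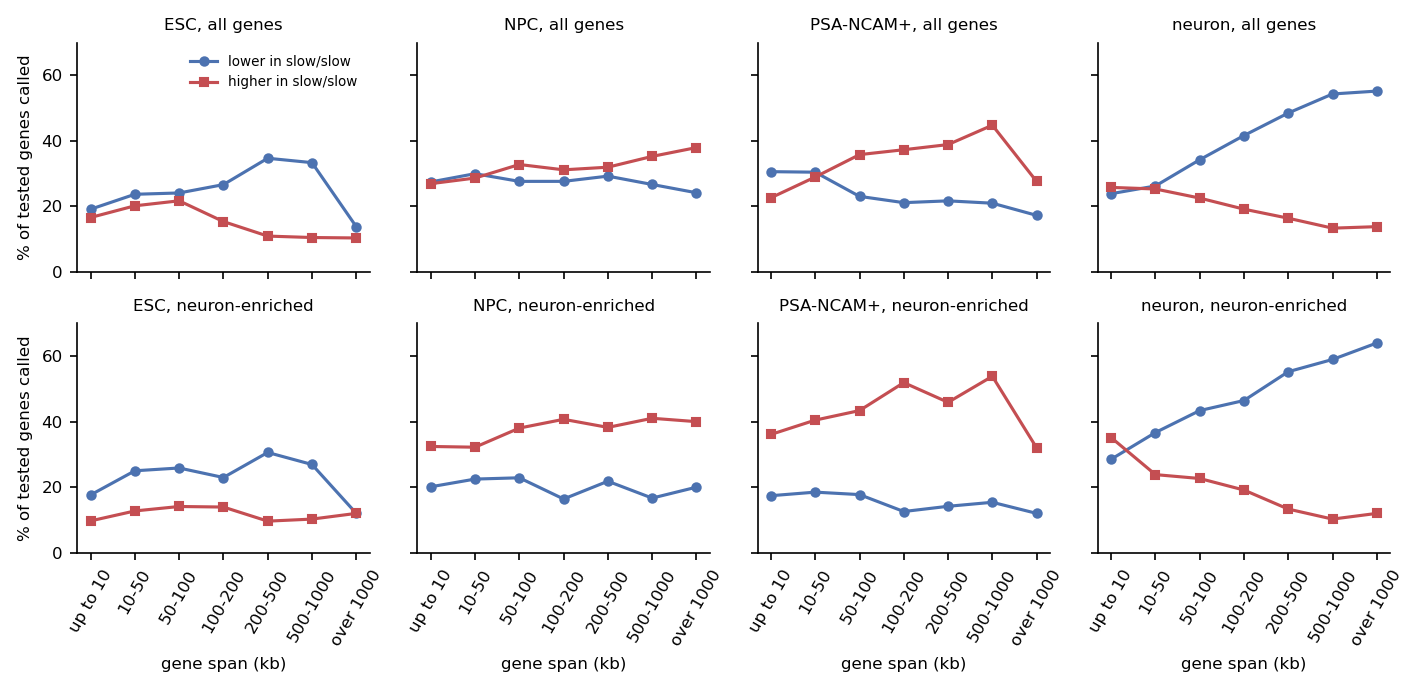
Share of tested genes called lower (circles) and higher (squares) in slow/slow cells (y axis, percent) by gene span in kb (x axis, unequal bins), at the 4 stages, for all genes with a span (top) and for those at least 4-fold higher in neurons than in ESCs (bottom); the 2 bins over 500 kb hold only the long genes described here. In neurons the share lower rises from 23.9% in the shortest bin to 55.2% over 1000 kb in the top row, and from 28.5% to 64% in the bottom row.

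The share of lower genes was taken over bins of span. The share lower in slow/slow neurons was 23.9% of 4745 genes up to 10 kb, 26.2% of 6315 from 10 to 50 kb, 34.2% of 1923 from 50 to 100 kb, 41.6% of 1108 from 100 to 200 kb and 48.5% of 623 from 200 to 500 kb. It was 54.3% of the 105 long genes up to 1000 kb and 55.2% of the 29 above. The median log2 change went from -0.0032 in the shortest bin to -0.81 and -1.01 in the last pair of bins. In ESCs the share lower went from 19.1% in the shortest bin to 34.7% from 200 to 500 kb and 33.3% of the 105 long genes up to 1000 kb, with medians of -0.01, -0.28 and -0.52. It was 13.8% of the 29 above, with a median of -0.25.

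Most long genes are neuronal, so the same shares were taken among genes at least 4-fold higher in neurons than in ESCs on the average of both genotypes, a contrast that does not use the genotype difference. Of 845 such genes up to 10 kb, 28.5% were lower and 35.1% higher, with a median of 0.09. Of the 103 long genes at least 4-fold higher in neurons, 60.2% were lower and 10.7% higher, with a median of -0.92. The bins next to them came near: of 353 such genes from 200 to 500 kb, 55.2% were lower and 13.3% higher, with a median of -0.73. Of 366 from 100 to 200 kb, 46.4% were lower and 19.1% higher. In PSA-NCAM+ cells the same 103 genes were lower in 14.6% and higher in 48.5%, against 17.4% and 36.1% of the shortest. The shares were 12.6% and 51.9% from 100 to 200 kb and 14.2% and 45.9% from 200 to 500 kb, so they were not particular to the long genes. No test was made across bins, since genes are not replicates, and within the long genes span and log2 change in neurons had a rank correlation of -0.13 over 134 genes measured in the same libraries.

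The IgLON proteins are small immunoglobulin adhesion molecules held to the neuronal surface by a lipid anchor. All 4 in the set were lower in slow/slow neurons (28.4% of all genes tested). Negr1 was at 150.3, 135 and 136 CPM in WT neurons and at 24.8, 24.1 and 23.3 CPM in slow/slow neurons, a log2 change of -2.55 ± 0.22 (SE), adjusted p = 1.20e-08. Ntm, neurotrimin, was at 94.9, 93.8 and 86.3 CPM and at 33.96, 35.1 and 34.1 CPM in the same order, a change of -1.41 ± 0.32 (SE), adjusted p = 9.18e-04. In both, the lowest WT sample exceeded the highest slow/slow sample. Opcml was at 29.6, 32.5 and 28.3 CPM in WT and 10.9, 10.01 and 9.84 CPM in slow/slow neurons (-1.55 ± 0.26 (SE), adjusted p = 6.55e-05). For Lsamp, the limbic system-associated protein, the WT values were 21.2, 21.8 and 21.7 CPM and the slow/slow values 6.78, 8.53 and 7.4 CPM (-1.51 ± 0.22 (SE), adjusted p = 1.56e-05). The groups did not overlap in any of the 4.

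Before the neuronal stage the means of the 4 IgLON genes were no more than 1.82 CPM in either genotype, with calls in both directions. Lsamp was higher in slow/slow NPCs (2.07 ± 0.64 (SE), adjusted p = 0.0173) and PSA-NCAM+ cells (1.39 ± 0.32 (SE), adjusted p = 0.001302), at means of no more than 0.33 CPM, and its NPC call was lost without WT replicate 1 or 3 or slow/slow replicate 3. Ntm was higher in slow/slow NPCs, at 1.203, 1.96 and 1.48 CPM against 0.458, 0.287 and 0.3299 CPM (2.11 ± 0.44 (SE), adjusted p = 3.95e-04), and did not pass in PSA-NCAM+ cells (log2 change 0.12 ± 0.35 (SE), adjusted p = 0.787). Opcml was higher in slow/slow PSA-NCAM+ cells (1.11 ± 0.34 (SE), adjusted p = 0.0102). Negr1 was lower in slow/slow ESCs (-2.41 ± 0.65 (SE), adjusted p = 0.00596, with overlapping groups) and in slow/slow PSA-NCAM+ cells (-0.63 ± 0.26 (SE), adjusted p = 0.0478), a call that was lost in 5 of the 6 fits without 1 of the stage's replicates. In WT ESCs Lsamp and Opcml had 0 counts.

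**Figure D3:**
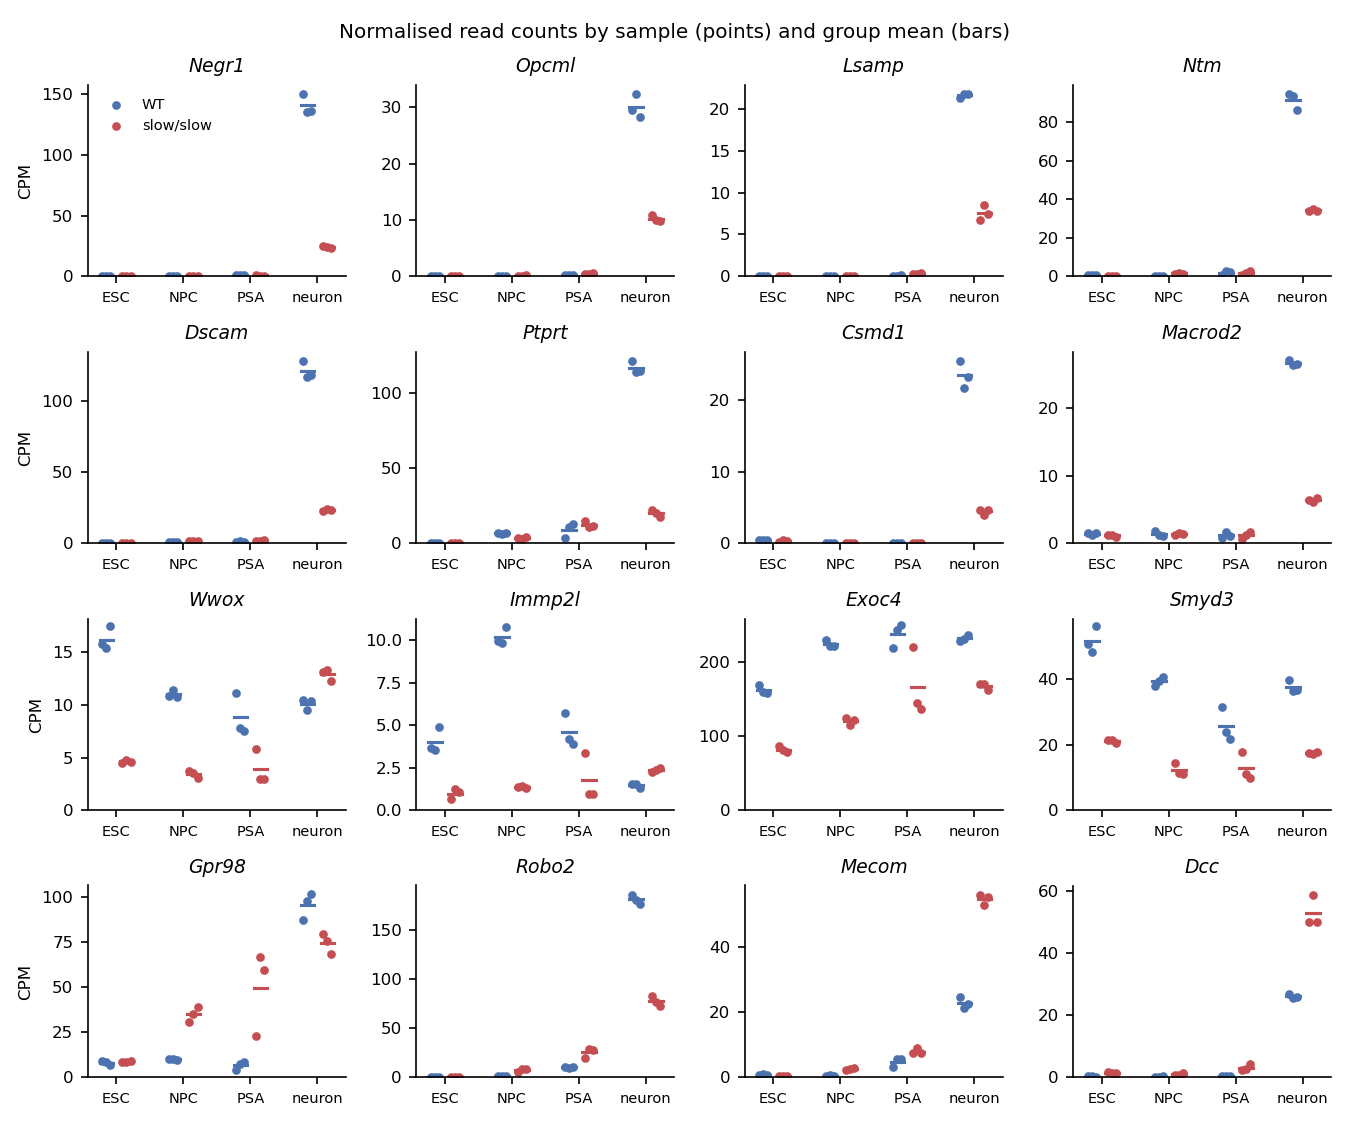
TMM-normalised counts (y axis, CPM, a scale of its own in each panel) of 16 long genes at the 4 stages (x axis; PSA, PSA-NCAM+ cells), 1 point per sample with a bar at the mean of 3. In neurons the slow/slow points of the first 8 genes and of Exoc4, Smyd3 and Robo2 lie below all WT points, and those of Mecom and Dcc above them.

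Among contactins and other immunoglobulin adhesion molecules 6 of 8 were lower in slow/slow neurons and 0 higher (28.4% and 23.4% of all genes tested). Dscam, which lets sister branches of a neuron tell self from non-self, was at 128, 116 and 118 CPM in WT and 22.8, 24.2 and 23.7 CPM in slow/slow neurons, a log2 change of -2.36 ± 0.17 (SE), adjusted p = 1.64e-09. Mdga2, which binds neuroligins, went from 19.7, 17.2 and 18.4 CPM to 4.16, 3.95 and 3.89 CPM (-2.20 ± 0.39 (SE), adjusted p = 1.26e-04). Both sets of samples were far apart. Dscam was higher in slow/slow NPCs (0.72) and PSA-NCAM+ cells (0.91) at means of 0.937 to 1.98 CPM. Cadm2, a synaptic adhesion molecule, was lower at all 4 stages, and in neurons stood at 67.7, 64.4 and 63.7 CPM in WT and 18.6, 19.6 and 18.7 CPM in slow/slow samples (-1.78 ± 0.18 (SE), adjusted p = 3.05e-07). In slow/slow ESCs it had 0 counts, at least 6.28-fold lower than the WT mean of 0.15 CPM. Sdk1, a sidekick protein of synaptic lamina matching, was lower at all 4 stages by similar amounts, with log2 changes of -1.29, -1.10, -1.10 and -1.25. Cntn4 did not pass in neurons (log2 change 0.01 ± 0.25 (SE), adjusted p = 0.9804).

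All 4 cadherins and catenins were lower in slow/slow neurons (28.4% of all genes tested). Ctnna2 was at 269, 262 and 250.5 CPM in WT and at 105, 106 and 102 CPM in slow/slow neurons (-1.32 ± 0.16 (SE), adjusted p = 7.72e-07), while in PSA-NCAM+ cells it was higher in slow/slow cells (1.92 ± 0.18 (SE), adjusted p = 2.63e-08). Cdh13, a cadherin without a transmembrane domain, was at 126, 114 and 116 CPM and 51, 51.96 and 49.01 CPM in the same order (-1.23 ± 0.23 (SE), adjusted p = 1.62e-04). Cdh18, a type II cadherin on chromosome 15, was lower at all 4 stages, with log2 changes of -0.81, -1.16, -2.46 and -0.89. The medians over all genes of that chromosome were -0.61, -0.58, -0.56 and -0.07 in the same order.

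Axon guidance genes were called in both directions. Robo2, a receptor for Slit ligands, was at 186, 181 and 176 CPM in WT and 82.7, 77.04 and 72.9 CPM in slow/slow neurons (-1.23 ± 0.16 (SE), adjusted p = 2.37e-06). In NPCs the order was the reverse, at 1.27, 1.27 and 1.44 CPM in WT and 5.19, 8.21 and 9.07 CPM in slow/slow samples (2.48 ± 0.19 (SE), adjusted p = 2.51e-09). Neither stage had overlapping groups. Dcc, the netrin receptor, was higher in slow/slow cells at every stage, and in neurons rose from 26.9, 25.4 and 25.8 CPM to 49.9, 58.8 and 49.99 CPM (1.02 ± 0.20 (SE), adjusted p = 2.72e-04). Its log2 changes at the earlier stages were 2.40, 1.80 and 2.81, from WT means under 0.5 CPM. Slit3, a Slit ligand, was lower in neurons (-0.44 ± 0.16 (SE), adjusted p = 0.0249), whereas Unc5d (-0.47 ± 0.27 (SE), adjusted p = 0.156) and Epha6 (-0.24 ± 0.39 (SE), adjusted p = 0.628) were called at no stage.

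Receptor tyrosine phosphatases, which sit at synapses and growth cones, were lower in slow/slow neurons in 5 of 6 cases (28.4% of all genes tested). With upper-quartile scaling or DESeq2 size factors 4 were lower. Ptprt went from 122, 114 and 115 CPM to 22.1, 20 and 17.8 CPM (-2.54 ± 0.28 (SE), adjusted p = 2.81e-07). Ptprd, a presynaptic organiser, went from 102, 97.5 and 94.7 CPM to 60.6, 52.3 and 51.7 CPM (-0.84 ± 0.18 (SE), adjusted p = 6.30e-04). The first lost more than the second, and neither had overlapping groups. Ptprn2, a dense-core vesicle protein, did not pass in neurons (-0.53 ± 0.23 (SE), adjusted p = 0.0643) but was higher in slow/slow PSA-NCAM+ cells, at 3.68, 7.78 and 11.4 CPM against 1.28, 1.54 and 1.51 CPM (2.41 ± 0.27 (SE), adjusted p = 3.02e-07).

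The teneurins Odz2 and Odz4 and their partner latrophilin Lphn3, which pair across the synaptic cleft, were each higher in slow/slow NPCs and PSA-NCAM+ cells and lower in slow/slow neurons. Over all genes tested 29.3%, 28.6% and 28.4% were called so in the same order. Lphn3 was at 133, 124 and 124 CPM in WT and 59.4, 57.4 and 55.6 CPM in slow/slow neurons (-1.15 ± 0.25 (SE), adjusted p = 6.21e-04). Odz4 was at 86.7, 89.1 and 86.98 CPM and 44.9, 38.8 and 35.96 CPM (-1.13 ± 0.28 (SE), adjusted p = 0.00191), and Odz2 at 109, 103 and 101 CPM and 70.8, 77.3 and 73.2 CPM (-0.50 ± 0.21 (SE), adjusted p = 0.0477). The neuronal call of Odz2 rested on TMM, since 2 of these 3 genes passed with upper-quartile scaling or DESeq2 size factors. Their changes in NPCs were 1.77, 1.04 and 1.85 on the log2 scale. Lphn3 was also higher in slow/slow ESCs, at 2.67, 2.11 and 2.97 CPM against 1.49, 1.06 and 1.204 CPM (1.01 ± 0.30 (SE), adjusted p = 0.0108).

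Of 11 synaptic scaffolds, organisers and release proteins 8 were lower in slow/slow neurons and 0 higher, while 0 were lower and 5 higher in PSA-NCAM+ cells. Over all genes tested the shares were 28.4% and 23.4% in neurons and 28.1% and 28.6% in PSA-NCAM+ cells. With upper-quartile scaling or DESeq2 size factors 7 were lower in neurons. Syt1 was at 178, 176 and 164 CPM in WT and 55, 63.3 and 57.7 CPM in slow/slow neurons (-1.56 ± 0.39 (SE), adjusted p = 0.00208), and higher in slow/slow PSA-NCAM+ cells (1.54 ± 0.41 (SE), adjusted p = 0.00341). Dlg2, the scaffold also called PSD-93, was at 13.8, 13.5 and 11.8 CPM and 6.93, 6.46 and 5.15 CPM (-1.07 ± 0.35 (SE), adjusted p = 0.0147). Magi2, another postsynaptic scaffold, changed by -1.19 ± 0.21 (SE), adjusted p = 8.11e-05. Magi1, its relative at cell junctions, did not pass in neurons, at 84.4, 81.1 and 81.2 CPM and 79.3, 82.6 and 77.2 CPM (-0.05 ± 0.08 (SE), adjusted p = 0.654).

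Metabotropic glutamate receptors and their neighbours in the group of G protein coupled receptors and neuregulins were lower in slow/slow neurons in 5 of 6 cases (28.4% of all genes tested). Grm5, which couples to phospholipase C, was at 7.41, 7.06 and 6.13 CPM in WT and 1.12, 1.38 and 1.398 CPM in slow/slow neurons (-2.40 ± 0.41 (SE), adjusted p = 5.82e-05). Grm7, a presynaptic receptor, was at 11.4, 9.73 and 10.03 CPM and 2.1, 2.18 and 2.302 CPM (-2.25 ± 0.39 (SE), adjusted p = 1.68e-04). The exception was Gpr98, a very large adhesion receptor of hair cells and photoreceptors, at -0.36 in neurons (adjusted p = 0.271). Gpr98 was higher in slow/slow PSA-NCAM+ cells, at 22.9, 66.7 and 59.7 CPM against 3.99, 7.72 and 8.62 CPM (2.89 ± 0.29 (SE), adjusted p = 8.82e-08), with replicate 1 well below the other two slow/slow samples.

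In the group of CSMD, LRP, sortilin and astrotactin receptors, with Atrnl1 and Tmem132d, 6 of 8 were lower in slow/slow neurons. Csmd3 was higher (28.4% lower and 23.4% higher over all genes tested). Csmd3 reached 1 CPM in the slow/slow neurons alone, and Gpc5 and Rasgrf2 in the WT neurons alone. These 3 entered the set only through the group where they are high, and their calls in neurons, counted above and below, support nothing. Dpyd also entered only through the slow/slow neurons, and Rgs6 and Park2 only through the WT neurons. For each of them fewer than 3 other samples reached 1 CPM, so their calls in neurons support nothing. Likewise Spag16 reached 1 CPM in slow/slow NPCs and PSA-NCAM+ cells alone, and Nkain3 in WT PSA-NCAM+ cells and neurons alone, so their calls at those stages support nothing. Fhit reached it in WT NPCs, WT PSA-NCAM+ cells and slow/slow neurons alone, and Pgcp in WT NPCs and slow/slow PSA-NCAM+ cells and neurons alone. Their calls at those stages are not independent of the filter. Csmd1, a large complement-related membrane protein on chromosome 8, was at 25.5, 21.7 and 23.3 CPM in WT and 4.72, 4.02 and 4.71 CPM in slow/slow neurons (-2.39 ± 0.29 (SE), adjusted p = 2.08e-06), against the rise of that chromosome's genes. Lrp1b, an LDL receptor relative, did not pass (-0.93 ± 0.41 (SE), adjusted p = 0.0633). Among genes of the matrix, proteoglycans and glycan-modifying enzymes, Gpc5 included, 3 of 10 were lower and 2 higher in neurons, beside 28.4% and 23.4% of all genes tested. Nell1, a secreted glycoprotein, was at 31.3, 29.05 and 27.4 CPM and 5.15, 5.303 and 4.796 CPM (-2.52 ± 0.17 (SE), adjusted p = 5.89e-10), and Gpc5, a glypican, at 3.45, 3.39 and 3.28 CPM and 0.387, 0.685 and 0.767 CPM. Lama2, the laminin chain of muscle and vessel basement membranes, turned around: it was lower in slow/slow PSA-NCAM+ cells (-1.53 ± 0.24 (SE), adjusted p = 2.08e-05) and higher in slow/slow neurons, at 10.2, 8.49 and 8.52 CPM against 1.87, 2.01 and 1.84 CPM (2.25 ± 0.23 (SE), adjusted p = 9.54e-08). The higher mesenchymal and endothelial markers of slow/slow neurons are given above, and their part in the rise of Lama2 was not tested.

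A group of 11 genes held kinases, phosphodiesterases and lipid signalling genes, with Cdkal1, Rgs6 and Rasgrf2, which are none of these. In slow/slow neurons 5 of the 11 were lower, Rgs6 and Rasgrf2 among them, and 2 higher, Cdkal1 among them. Of 6 calcium and ion-handling genes 4 were lower and 0 higher (28.4% and 23.4% of all genes tested). Rgs6, a brake on G protein signalling, went from 5.52, 5.14 and 4.49 CPM to 1.04, 0.834 and 0.713 CPM (-2.53 ± 0.34 (SE), adjusted p = 3.48e-06). Rgs6 entered the set only through the WT neurons, so this call supports nothing. Ryr2, a calcium release channel of the endoplasmic reticulum, was lower at all 4 stages, and in NPCs was at 16.4, 16.99 and 14.8 CPM in WT and 2.98, 2.43 and 3.11 CPM in slow/slow cells (-2.50 ± 0.28 (SE), adjusted p = 4.18e-07). In neurons its change was -1.93 ± 0.27 (SE), adjusted p = 6.25e-06. Fgfr2, a fibroblast growth factor receptor whose span is uncertain, was higher in slow/slow neurons, at 83.3, 90.8 and 87.5 CPM against 27.4, 36.6 and 34.97 CPM (1.40 ± 0.17 (SE), adjusted p = 8.12e-07). Dpp6, a partner of potassium channels, was lower in slow/slow ESCs, at 1.198, 1.19 and 0.867 CPM against 6.09, 5.68 and 6.07 CPM (-2.44 ± 0.21 (SE), adjusted p = 1.81e-08).

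Of 11 transcription factors and cofactors 4 were higher and 5 lower in slow/slow neurons (23.4% and 28.4% of all genes tested), with a median log2 change of -0.04, which was 0.10 with upper-quartile scaling. Mecom, a zinc finger factor, was at 24.6, 21.2 and 22.5 CPM in WT and 56.2, 52.98 and 55.5 CPM in slow/slow neurons (1.27 ± 0.17 (SE), adjusted p = 3.32e-06). Sox5, which acts in progenitors and deep-layer cortical neurons, was at 10.8, 11.3 and 10.9 CPM and 29.8, 31.6 and 32.04 CPM (1.50 ± 0.21 (SE), adjusted p = 5.55e-06). The forkhead factor Foxp2 was at 7.73, 7.62 and 7.81 CPM and 24.4, 20.96 and 20.7 CPM (1.51 ± 0.31 (SE), adjusted p = 3.77e-04). None of these 3 had overlapping groups. Its relative Foxp1 was higher in slow/slow cells at the earlier stages, most in ESCs, at 22.8, 19.5 and 21.9 CPM against 6.84, 7.06 and 6.34 CPM (1.66 ± 0.17 (SE), adjusted p = 1.72e-07). Camta1 was lower in neurons, at 91.6, 92.9 and 89.8 CPM against 276, 241 and 253 CPM (-1.49 ± 0.12 (SE), adjusted p = 3.41e-09), and its annotation overlaps 5 other coding genes. Auts2, a regulator of neuronal migration, did not pass in neurons (-0.04 ± 0.19 (SE), adjusted p = 0.865).

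The genes of metabolism, protein turnover and DNA repair, which include the fragile-site genes Fhit, Wwox, Immp2l, Macrod2 and Park2, were 8 in number. In NPCs 7 were lower in slow/slow cells and 0 higher, and in ESCs and in PSA-NCAM+ cells 5 were lower and 0 higher (27.4%, 21.9% and 28.1% of all genes tested were lower), and in neurons 2 were lower and 3 higher, or 5 higher with upper-quartile scaling. Immp2l, a mitochondrial inner membrane peptidase, was at 9.96, 9.82 and 10.8 CPM in WT and 1.397, 1.41 and 1.33 CPM in slow/slow NPCs (-2.88 ± 0.35 (SE), adjusted p = 1.26e-06). Wwox, an oxidoreductase on chromosome 8, was at 10.9, 11.4 and 10.8 CPM and 3.73, 3.51 and 3.08 CPM (-1.68 ± 0.20 (SE), adjusted p = 9.71e-07). Fhit, a diadenosine triphosphate hydrolase, was at 0.915, 0.785 and 1.12 CPM and 0.155, 0.215 and 0.246 CPM (-2.23 ± 0.38 (SE), adjusted p = 5.11e-05). All 3 had separate groups of samples.

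In neurons most of these genes were not called lower. Wwox was at 10.5, 9.58 and 10.3 CPM in WT and 13.1, 13.4 and 12.3 CPM in slow/slow neurons (0.35 ± 0.19 (SE), adjusted p = 0.132), and Immp2l at 1.53, 1.54 and 1.34 CPM and 2.26, 2.39 and 2.49 CPM (0.70 ± 0.34 (SE), adjusted p = 0.0902). Fhit was higher in slow/slow neurons, at 1.04, 0.934 and 1.04 CPM against 0.414, 0.369 and 0.481 CPM (1.24 ± 0.33 (SE), adjusted p = 0.00388). The Fhit calls are not independent of the filter, as given above. Dpyd, which breaks down pyrimidines, rose to 3.202, 3.24 and 2.71 CPM from 0.737, 1.01 and 0.799 CPM (1.85 ± 0.27 (SE), adjusted p = 1.14e-05). Dpyd entered the set only through the slow/slow neurons, and Park2, which was called lower, only through the WT neurons. The calls of both in neurons, counted above, therefore support nothing. Macrod2, which removes ADP-ribose and spans 1994 kb, went the other way, at 26.9, 26.3 and 26.4 CPM in WT and 6.39, 6.14 and 6.66 CPM in slow/slow neurons (-2.05 ± 0.24 (SE), adjusted p = 7.87e-07), with no call at the earlier stages. Of these genes WT ESCs already expressed Wwox at 15.8, 15.4 and 17.5 CPM, where slow/slow ESCs had 4.499, 4.81 and 4.65 CPM (-1.80 ± 0.20 (SE), adjusted p = 6.09e-07).

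Among genes of the cytoskeleton, polarity and trafficking 4 of 14 were lower and 2 higher in slow/slow neurons, beside 28.4% and 23.4% of all genes tested. Exoc4 was lower in slow/slow cells at every stage, at 169, 160.3 and 159 CPM in WT and 86.3, 81.2 and 78.6 CPM in slow/slow ESCs (-0.99 ± 0.12 (SE), adjusted p = 1.27e-06) and at 228, 232 and 237 CPM and 171, 169.9 and 163 CPM in neurons (-0.47 ± 0.12 (SE), adjusted p = 0.001899). The groups overlapped in PSA-NCAM+ cells alone. Smyd3 was likewise lower at every stage, at 50.6, 48.1 and 56.02 CPM and 21.4, 21.3 and 20.6 CPM in ESCs (-1.29 ± 0.17 (SE), adjusted p = 3.74e-06). Vps13b, a Golgi protein on chromosome 15, was lower at every stage, with log2 changes of -0.72, -0.87, -0.66 and -0.34. The medians over all genes of that chromosome were -0.61, -0.58, -0.56 and -0.07. Pard3, a polarity protein on chromosome 8, was higher at every stage, with log2 changes of 0.34, 0.63, 0.87 and 0.87. For all genes of chromosome 8 the medians were 0.45, 0.48, 0.48 and 0.42, so in ESCs Pard3 rose no more than its chromosome. Syne1, a nuclear envelope spectrin protein, was lower in slow/slow NPCs, at 0.207, 0.191 and 0.296 CPM against 2.16, 1.57 and 2.38 CPM (-3.15 ± 0.35 (SE), adjusted p = 4.40e-07). Spag16, an axonemal protein, was higher at every stage, with means no more than 1.23 CPM. As given above, it reached 1 CPM in slow/slow samples alone.

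Further changes with large values were these. Car10, a carbonic anhydrase-related protein, was the most increased in NPCs and PSA-NCAM+ cells among genes averaging at least 1 CPM: it was at 0.208, 0.311 and 0.684 CPM in WT and 2.33, 10.7 and 10.2 CPM in slow/slow PSA-NCAM+ cells (4.31 ± 0.48 (SE), adjusted p = 3.46e-07), and in neurons it was lower (-1.15 ± 0.38 (SE), adjusted p = 0.0159). Enox1, a cell surface oxidase, was at 0.8204, 0.775 and 1.17 CPM in WT and 8.28, 12.6 and 7.897 CPM in slow/slow ESCs (3.37 ± 0.34 (SE), adjusted p = 1.72e-07). Pkhd1, the fibrocystin gene, was at 6.84, 6.08 and 5.12 CPM and 1.33, 1.21 and 1.27 CPM (-2.24 ± 0.32 (SE), adjusted p = 1.20e-05). In each case the groups of samples were separate. Further ESC changes were those of the phosphatase Ptprm (-1.96), the reelin adaptor Dab1 (1.06) and Dnahc7c, an axonemal dynein of uncertain span (1.34). Thsd7b was higher in slow/slow PSA-NCAM+ cells (3.29), the neural transcription factor Npas3 in NPCs (2.02) and the sialyltransferase St6galnac3 in neurons (0.88). Nckap5 was higher in slow/slow neurons, at 16, 19.99 and 15.8 CPM against 4.54, 6.19 and 5.47 CPM (1.68 ± 0.23 (SE), adjusted p = 3.85e-06).

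Whether the genotype effect itself differed between neurons and ESCs was tested with an interaction term. It was more negative in neurons for 30 of the 134 genes and more positive for 29 (21.6% and 20.5% of all genes tested), shares of 22.4% and 21.6% that lay near those over all genes. Dscam changed by 0.31 in ESCs and -2.36 in neurons, an interaction of -2.67 ± 0.58 (SE), adjusted p = 9.84e-04. In WT ESCs Dscam was at 0.0086 CPM per kb of exon, so its change there rests on few counts. Wwox changed by -1.80 and 0.35, an interaction of 2.15 ± 0.28, adjusted p = 3.74e-06.

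Splicing within the long genes was read from the percentage of transcripts that include an exon (PSI). An exon was called changed where the mean PSI differed by over 10 points and the posterior probability of the difference, from the pooled reads of each genotype, exceeded 0.95. In mature neurons 14 of 258 tested exons of the long genes changed, in 10 genes, of which 7 gained and 7 lost inclusion with the slow allele (3.55% of all exons tested). Of the 14, 12 had a length that is a multiple of 3, a share that was not taken over all exons tested. In ESCs 1 of 87 changed, in NPCs 6 of 128 and in PSA-NCAM+ cells 4 of 168 (0.809%, 2.93% and 0.966% of all exons tested). With the replicates fitted separately by limma on the logit scale 1, 5, 0 and 14 passed in the order ESC, NPC, PSA-NCAM+ and neuron, and in PSA-NCAM+ cells 6 had an unadjusted p under 0.05. Pairing the PSA-NCAM+ samples by replicate number raised that 0 to 2. Without slow/slow neuron replicate 3, the library of lowest depth, 26 exons passed in neurons.

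The exons that changed most at a stage, and the microexons among them as the splicing table types them (those of Nav2, Robo2 and Nbea), are printed with the 24-base exon of Erc2 from GENCODE vM21 transcripts (GRCm38), found by gene, exon length and the lengths of both flanking introns. The exon is in capitals and 15 bases of each neighbouring exon are in lower case, 5′ to 3′.
Pard3 42-base exon (chr8:127410732-127410773, plus strand): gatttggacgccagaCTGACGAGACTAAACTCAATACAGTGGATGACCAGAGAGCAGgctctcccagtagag
Nav2 9-base exon (chr7:49575247-49575255, plus strand): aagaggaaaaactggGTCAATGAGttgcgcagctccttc
Auts2 45-base exon (chr5:131470414-131470458, minus strand): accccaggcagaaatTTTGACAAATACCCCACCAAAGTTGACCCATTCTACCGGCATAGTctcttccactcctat
Robo2 12-base exon (chr16:74008775-74008786, minus strand): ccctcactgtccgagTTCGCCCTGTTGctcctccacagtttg
Nbea 9-base exon (chr3:55994048-55994056, minus strand): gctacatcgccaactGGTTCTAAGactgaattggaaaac
Erc2 24-base exon (chr14:27776159-27776182, plus strand): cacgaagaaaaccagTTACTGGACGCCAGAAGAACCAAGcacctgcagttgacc

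The Pard3 exon of 42 bases was the clearest change before neurons. Its PSI was 40.7, 32.2 and 39.5% in WT and 72.7, 75 and 65% in slow/slow ESCs (33.4 points, posterior 0.999). In NPCs it was 43.4, 44.7 and 42.4% in WT and 89.5, 88.4 and 93.7% in slow/slow cells (47.0 points, posterior above 0.999). The 6 samples of each stage fell into separate groups, slow/slow above WT. Another Pard3 exon, of 84 bases, was more included in slow/slow neurons, at 88.9, 87.7 and 87.3% against 58.5, 69.5 and 67.9%.

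The 9-base microexon of Nav2, a microtubule-associated protein of neurite growth, went the other way. Its PSI was 89.5, 95.9 and 95.05% in WT and 57.8, 40.2 and 43.7% in slow/slow NPCs (-46.2 points, posterior above 0.999). In PSA-NCAM+ cells it was 82.4, 80.2 and 85.98% and 71.6, 36 and 50.2%, with slow/slow replicate 1 nearest to WT. The total level of Nav2 was higher in slow/slow NPCs (0.46 ± 0.17 (SE), adjusted p = 0.0247). A 453-base exon of Nav2 and a 62-base exon of Large, a glycosyltransferase of chromosome 8, also lost inclusion in slow/slow NPCs, with differences of -24.7 and -27.1 points, and the 207-base exon of Enox1 gained 33.2 points. A 122-base exon of Foxp1 differed by -11.2 points there, and in PSA-NCAM+ cells exons of Arfip1 (75 bases) and Fgfr2 (78 bases) differed by -15.1 and 11.9 points.

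In neurons the 45-base exon of Auts2 changed most. Its PSI was 80.98, 79.03 and 80.9% in WT and 45.2, 52.5 and 41.8% in slow/slow neurons (-33.8 points, posterior above 0.999), and it was also lower in slow/slow PSA-NCAM+ cells, at 23.4, 14.5 and 22.9% against 72.97, 44.9 and 47.6%. A 223-base exon of the same gene was more included in slow/slow neurons, by 15.7 points. Auts2 total levels in neurons overlapped, at 144, 140.5 and 145 CPM in WT and 131, 147 and 138 CPM in slow/slow samples. Robo2 held exons of both directions as well: its 12-base microexon rose from 39.9, 40.8 and 39.6% to 58.2, 52.6 and 62.5% (17.7 points, posterior 0.994), and its 126-base exon went from 73.2, 69.2 and 68.4% to 54.02, 50.6 and 56.2% (-16.7 points, posterior above 0.999).

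The other exons less included in slow/slow neurons were those of Odz2 (183 bases, -27.6 points), Kalrn, kalirin, a protein of dendritic spines (93 and 123 bases, -21.4 and -13.7 points), Erc2, an active zone scaffold (24 bases, -14.9 points), and Ctnnd2, delta-catenin (75 bases, -11.9 points). Those more included were in Bai3, an adhesion receptor for complement-like ligands (105 bases, 23.0 points), Lphn3 (31 and 204 bases, 17.0 and 12.6 points) and Nbea, neurobeachin (9 bases, 13.5 points). No group of 3 overlapped with its counterpart in any of these exons. Of 11 microexons tested in the long genes in neurons 2 changed, those of Robo2 and Nbea, against 58 of 346 over all genes.

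**Figure D4:**
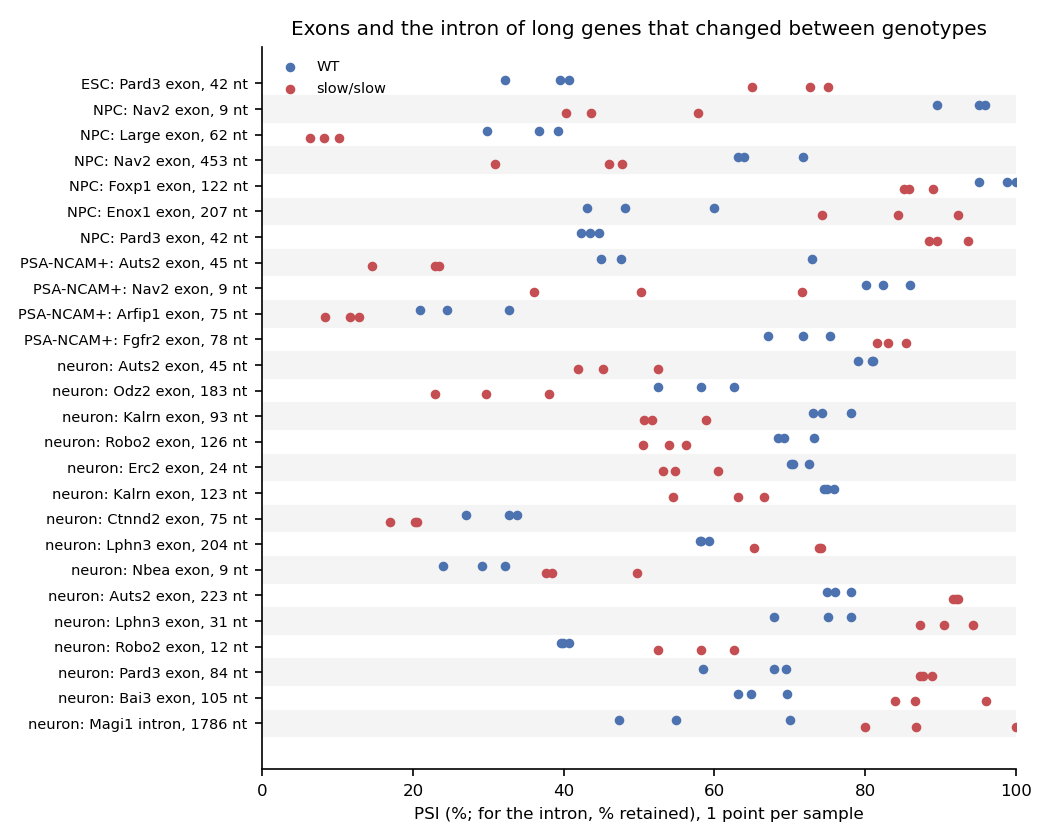
PSI in percent (x axis, 1 point per sample, 3 per genotype) of each exon, and retention in percent of the intron of Magi1, called changed in the long genes at a stage (y axis: stage, gene, length in nucleotides). The WT and slow/slow points are separate on every line, from 32.2 to 40.7% against 65 to 75% for Pard3 in ESCs to 47.4 to 70% against 80 to 100% for the Magi1 intron in neurons.

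Retained introns hardly changed. From the ESC to the neuronal stage the tests covered 275, 405, 549 and 1017 introns of the long genes, and 0, 0, 0 and 1 were called (0.0541%, 0.321%, 0.0826% and 0.259% of all introns tested). By limma the counts were the same 0, 0, 0 and 1, and 0, 0, 0 and 1 had an unadjusted p under 0.05 with a difference over 10 points. The 1 was an intron of Magi1 of 1786 bases, retained at 70, 47.4 and 54.9% in WT and 86.7, 80 and 100% in slow/slow neurons, with as few as 28 reads in a sample. At 30 reads in every sample it was not tested.

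Where along the gene the reads lay was measured as the log2 ratio of splice junction reads over exons of the later and the earlier part of each gene, parted at its middle event, which does not use the gene's total. In neurons 47 of the long genes had at least 50 reads in each part in every sample, and 6 differed between genotypes by limma, 3 with relatively fewer and 3 with relatively more reads in the later part (1.52% of all genes tested). In ESCs 0 of 16, in NPCs 1 of 24 and in PSA-NCAM+ cells 0 of 29 differed (0.734%, 2.37% and 0.076% of all genes tested), with 2, 5 and 2 at an unadjusted p under 0.05. The median difference of the 47 in neurons was -0.02, as it was over all genes.

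Rabgap1l, a regulator of Rab proteins, had ratios of 1.70, 1.40 and 1.24 in WT and 0.47, 0.81 and 0.72 in slow/slow neurons, a difference of -0.78 ± 0.12 (SE), adjusted p = 0.00199. Ptprg, a receptor tyrosine phosphatase, had 0.38, 0.36 and 0.36 and 1.00, 1.09 and 0.82, a difference of 0.61 ± 0.08 (SE), adjusted p = 1.97e-04. The share of reads in the later part was thus smaller in slow/slow samples for the former and larger for the latter. Ptprn2 (0.64 ± 0.07 (SE), adjusted p = 9.10e-05) and Lrba, a relative of neurobeachin (0.91 ± 0.11 (SE), adjusted p = 1.21e-04), moved as Ptprg did, and Magi1 as Rabgap1l did (-0.30 ± 0.06 (SE), adjusted p = 0.0172). Etl4 in NPCs had relatively more reads in the later part (0.37 ± 0.06 (SE), adjusted p = 7.95e-04). When the parts were counted instead from exon-exon junction reads of introns, a choice made after seeing the data, these 6 kept their direction and passed.

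Camta1 had the largest difference, with ratios of 1.42, 1.03 and 1.26 in WT and -0.53, -0.28 and -0.27 in slow/slow neurons (-1.60 ± 0.10 (SE), adjusted p = 1.25e-07), but it turned to 0.22 ± 0.07 (SE), adjusted p = 0.165, with the junction reads of introns. The latter called 8 of 69 long genes in neurons, 6 with relatively more and 2 with relatively fewer reads in the later part (1.74% of all genes tested), and 7 of 29 in NPCs, 5 with more and 2 with fewer (2.02% of all genes tested). The NPC genes included Kalrn, with relatively fewer reads in its later part (-1.69 ± 0.15, adjusted p = 5.84e-08), which the exon reads did not cover.

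**Figure D5:**
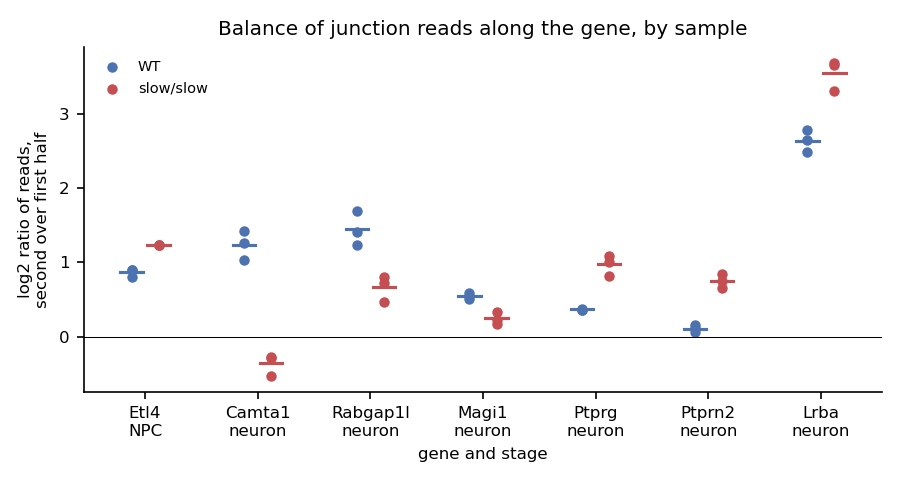
Log2 ratio of splice junction reads in the later over the earlier part of the gene (y axis) for the 7 long genes whose ratio differed between genotypes, by gene and stage (x axis), 1 point per sample and a bar at the mean of 3. Slow/slow points lie below WT for Camta1, Rabgap1l and Magi1 and above WT for Etl4, Ptprg, Ptprn2 and Lrba.

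Around the threshold, Car10, Dock1, Foxp1, Syt1 and Pgcp were the 5 genes just inside, at 500.7 to 511 kb, and Edil3, Ank3, Dennd1a, Prkce and Aff3 the 5 just outside, at 485 to 498 kb. The 10 genes of longest span ran from Arfip1 at 1319 kb through Gpc5, Magi2, Dlg2, Fhit, Csmd1, Ptprd, Macrod2 and Lrp1b to Fgfr2 at 3007 kb, and the spans of the first and the last are uncertain. Of these 10, 6 were lower in slow/slow neurons, 2 were higher (Fhit and Fgfr2), and Lrp1b and Arfip1 did not pass (28.4% lower and 23.4% higher over all genes tested). The 6 include Gpc5, and the calls of Gpc5 and Fhit are not independent of the filter.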

How the data were processed

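RNA from 24 samples (8 groups of 3) had been sequenced by the study as poly(A)+ TruSeq stranded libraries with 75-base paired reads. The authors' deposited expression table held read counts per gene, RPKM as the authors' mean of each group, and columns of the authors' own comparisons (log2 fold changes and p-values), of which the counts alone were used. Their deposited splicing table, made with vast-tools on mm9, gave PSI in percent with the reads behind each value. All of its sample columns matched a sample, and a second table of comparisons was not used. The submitters' processing notes name bcl2fastq 2.17.1.14 and edgeR.

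Library totals ranged from 32974432 to 104466886 counts, which limits the precision of genes under 1 CPM. Of 21553 genes, 16627 passed filterByExpr. Counts were scaled by TMM and tested in 1 model of all 8 groups with edgeR 4.0.16 (quasi-likelihood test, Benjamini-Hochberg adjustment over all genes tested, threshold 0.05) in R 4.3.3, with DESeq2 1.42.0 as an alternative. The residual degrees of freedom were 16. CPM are TMM-normalised. Exons were called by a difference over 10 PSI points and a posterior over 0.95 from pooled reads, with limma 3.58.1 on the logit scale as an alternative. Read balance was the log2 ratio of reads, with a pseudocount of 0.5, over exon events of the later and earlier part of a gene, with at least 4 events and 50 reads per part, tested with limma. Floors for groups at 0 used 3 counts over the group and cover counting error only. Each fit was tested on simulated data.

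The members, the gene lists and the rule for named genes were chosen with earlier results of these data known. Genes named with values were the 10 of longest span, the 5 most lowered and 5 most raised at each stage (10 and 10 in neurons) among called genes with separate groups and a mean of at least 1 CPM, the IgLON family, the 5 most abundant per length in WT neurons and in WT ESCs, genes called one way at all 4 stages, the 5 largest interactions in each direction, the 5 genes on either side of the threshold, and the largest exon, intron and read-balance changes. A gene that this rule selects is not reported here. Others named here as examples of a group were chosen after their values were seen. Whether replicate numbers pair the samples was checked by the correlation of same-numbered samples' deviations from their group means. It was 0.40 to 0.54 in PSA-NCAM+ cells and -0.08 to 0.07 at the other stages. In PSA-NCAM+ cells it was also 0.40 between WT replicate 2 and slow/slow replicate 3, and 0.24 between WT replicate 3 and slow/slow replicate 2. The correlation there sets replicate 1 of both genotypes apart, and does not show that replicates 2 and 3 pair by number. Alternatives covered scaling, the count filter, the samples fitted, the replicate block, thresholds and leaving out each replicate. The p-values measure the spread between cultures of 1 line per genotype.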

Additional observations from a re-analysis of the deposited data

Results flagged for a closer look

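The genotype effect differed between mature neurons and ESCs, by the interaction term in edgeR, for 30 long genes in the negative direction and 29 in the positive direction (21.6% and 20.5% of all genes tested). The 5 most negative interactions on the log2 scale were those of Dlg2 (-5.43), Opcml (-5.21), Cntn4 (-4.06), Enox1 (-3.68) and Plcb1, a phospholipase C (-3.21). The 5 most positive were those of Nckap5 (4.77), Cadm2 (4.51), Lama2 (4.32), Dpyd (4.20) and Immp2l (2.72). Dlg2, Opcml and Cntn4 had 0 counts in WT ESCs and Cadm2 had 0 counts in slow/slow ESCs, so these 4 fitted values depend on the prior count and are no measure of size. Dpyd entered the set only through the slow/slow neurons, so its interaction supports nothing.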

How the results depend on the processing

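In the expression fits no stage median over all long genes and no called change of a named gene changed direction. With upper-quartile scaling the neuronal median of the transcription factors went from -0.04 to 0.10 and that of all genes tested from -0.06 to 0.08. Further, the read balance of Camta1 in neurons went from -1.60 to 0.22 with junction reads of introns. Fitted on one stage's samples, ESCs gave 51.25% lower and 20% higher, the NPC median was 0.071, PSA-NCAM+ cells gave 7.38% lower and 18.9% higher, and neurons 20.3% higher with a median of -0.79. With a minimum change of 2-fold the shares lower were 17.2% in ESCs, 15.7% in NPCs and 12.7% in PSA-NCAM+ cells (25.4% higher), the share with a more positive interaction was 14.2%, and 4.48% were lower in WT neurons than in WT ESCs. Over 1 Mb, 13.8% were lower in ESCs, with medians of -0.25 in ESCs, 0.021 in PSA-NCAM+ cells and -1.01 in neurons. At a stage mean of at least 1 CPM, 17.0% were higher in ESCs with a median of -0.33, and the NPC median was 0.030. The neuronal median was -0.71 with upper-quartile scaling and -0.59 by annotated length. Changed exons in PSA-NCAM+ cells numbered 0 by limma, and 9 passed 15 points in neurons. The Magi1 intron was lost at 30 reads, leaving 0. Read balance called 0 in NPCs by genomic midpoint, and 1 in ESCs and 7 in NPCs with junction reads of introns. Leaving out 1 replicate, medians ranged from -0.44 to -0.29 in ESCs (-0.29 without WT replicate 1), 0.13 to 0.33 in NPCs and 0.19 to 0.44 in PSA-NCAM+ cells, and changed exons from 1 to 2 in ESCs, 4 to 8 in PSA-NCAM+ cells (8 without WT replicate 2 or slow/slow replicate 1) and 13 to 26 in neurons (26 without slow/slow replicate 3). The cause of these differences was not tested.

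With the replicate block, 61.2% were lower and 15.7% higher in neurons, with a median of -0.86, and 21.6% and 44.0% in PSA-NCAM+ cells, where replicate 1 of both genotypes stood apart. There the block gave 2 changed exons, against 0 by limma without it. Outside that stage the samples share only a number.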
